A study of Mus musculus with 52 samples.

Results

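H3K4 trimethylation (H3K4me3) and H3K4 monomethylation (H3K4me1) were compared in the same untreated cells, using 6 of the 52 libraries of the study, 3 per mark. These were the H3K4me3 and H3K4me1 ChIP-seq libraries labelled F/F with no treatment. F/F cells are fibroblasts from mouse embryos (MEFs), immortalized by serial passage, with loxP sites in the 2 MLL2 alleles, so the H3K4 methyltransferase MLL2 (gene Kmt2d) is intact in both groups and the groups differ only in the antibody. Both antibodies were from Abcam. The libraries of a mark are described in the methods as independent experiments, and all come from a single cell line, so that errors and p-values measure only the spread between repeats of that line and not between embryos. Where 3 H3K4me3 and 3 H3K4me1 libraries of FC/FC cells are used below, these are the same cells given tamoxifen for 24 h and grown for 6 further days, which excises MLL2 exons 3–5.

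Histone H3 can carry 1, 2 or 3 methyl groups on lysine 4. H3K4me3 is known for sitting on the nucleosomes around the start site of active or poised genes, in particular at promoters rich in CpG dinucleotides, and is laid down mainly by the SETD1A/B complexes and by MLL1 and its closest relative. H3K4me1 is known as the mark of enhancers, active or primed, and of the flanks of active promoters, and is laid down to a large extent by MLL2 and MLL3. A fibroblast is a connective tissue cell that makes the extracellular matrix, and its identity genes include those for fibrillar collagens, vimentin and the transcription factors of limb and trunk mesenchyme.

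The values are RPKM over each transcript with 500 bp added on each side, and peaks called library by library with an H3 library as the background. RPKM are reads per kilobase of transcript, scaled here to the reads of the library summed over all listed transcripts. The reads summed over transcripts were 36865445, 29716371 and 48469734 in the H3K4me3 libraries, and 26714377, 27744176 and 30528079 in the H3K4me1 libraries. The total recovered from the RPKM equalled these summed reads in every library, so reads outside the listed transcripts do not enter it. A difference between the marks is thus a difference in the share of each mark's transcript reads that a gene receives. It is not a difference in the share of all reads of a mark, nor in the number of modified nucleosomes. Spearman correlations across the 23043 genes kept (the longest transcript of each symbol, at least 250 bp), which are not independent replicates, were 0.975 to 0.979 among the H3K4me3 libraries, 0.987 to 0.991 among the H3K4me1 libraries and 0.734 to 0.761 between the marks. The cell type label was checked against marker genes. H3K4me3 peaks lay at the promoters of 9 of 10 fibroblast markers in all 3 libraries, and the summed RPKM of these markers was 92.8 to 97.4 for H3K4me3 and 23.2 to 23.9 for H3K4me1. H3K4me3 was likewise found at 1 of 24 haematopoietic, 4 of 17 endothelial, 2 of 19 epithelial, 3 of 21 neuronal and 0 of 18 myogenic markers. The haematopoietic genes summed to 5.87 to 6.48 RPKM for H3K4me3 and 13.9 to 15.5 RPKM for H3K4me1, and the neuronal ones to 8.44 to 8.92 and 9.50 to 9.92. The adipogenic list did not separate in this way, with 8 of 15 promoters and sums of 57.1 to 65.5 RPKM for H3K4me3 and 16.5 to 17.8 for H3K4me1.

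The first question was where in the genome each mark lay. H3K4me3 peaks were few, wide and close to transcription start sites (TSSs), whereas H3K4me1 peaks were many and mostly far from any TSS. The H3K4me3 libraries had 18158, 17545 and 18701 peaks, against 120661, 81444 and 101056 in the H3K4me1 libraries. The midpoint lay within 1 kb of a TSS for 59.3%, 59.0% and 56.99% of H3K4me3 peaks, against 7.36%, 7.28% and 8.32% of H3K4me1 peaks. It lay over 5 kb from every TSS for 29.3%, 28.1% and 30.9% of H3K4me3 peaks, against 77.2%, 76.0% and 75.2% of H3K4me1 peaks. None of these values overlapped between the marks. The differences of the means were 50.8 percentage points within 1 kb and -46.6 percentage points over 5 kb, each with p = 0.1 in an exact two-sided permutation test of 3 libraries against 3, the smallest p this design allows.

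**Figure D1:**
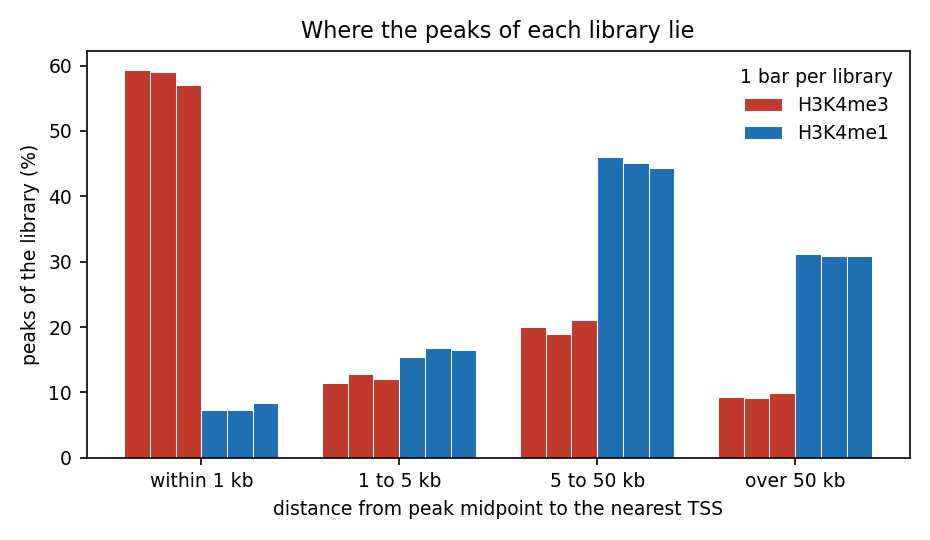
Share of the peaks of each library (y axis, percent) by the distance from the peak midpoint to the nearest TSS (x axis), 1 bar per library, H3K4me3 in red and H3K4me1 in blue. H3K4me3 bars are the taller ones within 1 kb (56.99% to 59.3%) and H3K4me1 bars are the taller ones beyond 5 kb.

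The typical H3K4me3 peak reached over a TSS and the typical H3K4me1 peak did not. A TSS was covered by 61.8%, 61.9% and 59.9% of H3K4me3 peaks, against 3.14%, 5.41% and 4.78% of H3K4me1 peaks. Median widths were 2070.5, 2234 and 2188 bp for H3K4me3 and 959, 1693 and 1436 bp for H3K4me1 (exact permutation p = 0.1). The order of the widths depended on how many peaks were considered. Among the 17545 top-scoring peaks of each library, the difference in median width between H3K4me3 and H3K4me1 was -1233.67 bp, an alternative added after the data had been seen. This number takes in all or nearly all H3K4me3 peaks of a library (17545 to 18701). Of the 81444 to 120661 H3K4me1 peaks it takes in only those with the highest scores. In all, H3K4me3 peaks covered 40.4, 42.5 and 44.3 Mb and H3K4me1 peaks covered 159, 184 and 199 Mb.

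The marks were not exclusive of each other at the level of peaks. Of the H3K4me3 peaks within 1 kb of a TSS, 73.6% to 74.5% overlapped an H3K4me1 peak in all 3 H3K4me1 libraries, and 64.0% to 65.9% of those over 5 kb from a TSS did so. Of the H3K4me1 peaks over 5 kb from a TSS, 4.15% to 5.37% overlapped an H3K4me3 peak in all 3 H3K4me3 libraries. H3K4me1 at distal sites was thus mostly without H3K4me3, and H3K4me3 at distal sites was mostly with H3K4me1. Peaks over 5 kb from a TSS numbered 4938 to 5786 per library for H3K4me3 and 61873 to 93123 for H3K4me1. This limits the share of distal H3K4me1 peaks that could overlap an H3K4me3 peak. The distal H3K4me3 peaks were narrower than the promoter ones, with medians of 1057 to 1219 bp against 2461 to 2626 bp, and 27.8% to 29.9% of them lay within 1 kb of a start in the larger GENCODE vM21 annotation, which was consulted after the data had been seen.

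The second question was which promoters carried which mark. A promoter was taken as the TSS of the longest transcript with 1 kb on each side, and was assigned a mark when a peak overlapped it in all 3 libraries. Of 23043 promoters, 12269 (53.2%) had H3K4me3, and these are called trimethylated here. H3K4me1 was found in all 3 libraries at 9267 promoters (40.2%), of which most were trimethylated as well. Both marks were present at 8104 promoters, H3K4me3 in all and H3K4me1 in none of the libraries at 1038, H3K4me1 in all and H3K4me3 in none at 970, and neither mark in any library at 8582 (37.2%). The other 4349 promoters were variable between libraries of a mark, mostly because H3K4me1 was called at a trimethylated promoter in 1 library (1088 promoters) or in 2 libraries (2039). The number with H3K4me3 only was 1672 without H3K4me1 replicate 3, and the variable class was 2844 without H3K4me1 replicate 2.

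The marks differed in how they covered the TSS, while on its flanks they lay together. At all 12269 trimethylated promoters, the TSS itself was covered by H3K4me3 in 95.8% to 97.1% of cases and by H3K4me1 in 17.7% to 25.2%. H3K4me1 cover was lowest 100 to 200 bp downstream of the TSS, at 13.9%, 18.9% and 18.2% in the 3 libraries. It was highest on the flanks, at 46.7%, 48.3% and 58.3% some 700 to 800 bp upstream and at 51.1%, 56.997% and 64.4% some 1200 to 1400 bp downstream. The difference between the TSS and 1.5 kb downstream was -33.9 ± 3.15 percentage points (SD, n = 3 libraries), with the same sign in all 3 libraries. H3K4me3 extended further into the gene than away from it, covering 88.9% of trimethylated promoters 1 kb downstream and 52.6% of them 1 kb upstream. At the 8104 promoters with both marks, H3K4me3 covered the TSS of 96.2% to 97.4% and H3K4me1 that of 23.4% to 33.9%, and 1 kb downstream the means were 91.3% for H3K4me3 and 69.6% for H3K4me1. When a peak had to cover the TSS itself, promoters with both marks fell to 1378, against 7751 with H3K4me3 only.

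**Figure D2:**
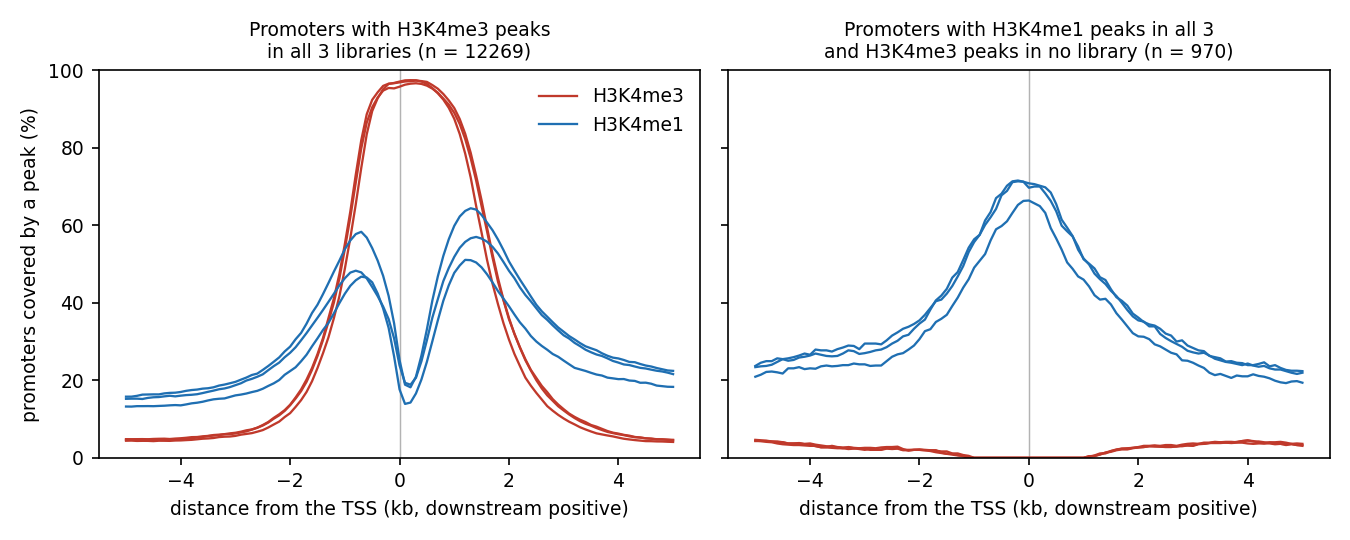
Percent of promoters covered by a peak (y axis) at each distance from the TSS (x axis, kb, downstream positive), 1 line per library, H3K4me3 in red and H3K4me1 in blue. At the 12269 trimethylated promoters (left) H3K4me1 dips at the TSS, where H3K4me3 is highest, and peaks on both flanks, whereas at the 970 promoters with H3K4me1 only (right) it peaks over the TSS; there the zero of H3K4me3 within 1 kb and the high H3K4me1 follow from how these promoters were chosen.

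At the 970 promoters with H3K4me1 only, no such dip was seen, although high cover near the TSS follows from their choice by a peak within 1 kb. H3K4me1 covered the TSS of 66.4%, 70.8% and 69.7% of them in the 3 libraries, and fell off on both sides to 20.9% to 23.7% at 5 kb upstream and 19.4% to 22.4% at 5 kb downstream.

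Promoters of these classes differed in their DNA, which played no part in the choice of the classes. The 200 bases before the TSS are given for 2 genes with trimethylated promoters and for 3 genes with H3K4me1 only, to show the contrast in the number of CpGs (GRCm38, identical to mm10, 5′ to 3′ on the strand of the gene, taken from RefSeq's genome assembly, with every CG in capitals). They are Pcbp1, a poly(C)-binding RNA regulator (chr6:86526166-86526365, minus strand, 22 CpGs), and Hoxd13, a homeobox gene of the distal limb (chr2:74668110-74668309, plus strand, 28 CpGs). Those with H3K4me1 only are S100a2, a small calcium-binding protein (chr3:90590047-90590246, plus strand, 5 CpGs), Thy1, a glycoprotein of the surface of fibroblasts, neurons and T cells (chr9:44043184-44043383, plus strand, 6 CpGs), and Igfbp6, a binding protein of insulin-like growth factors (chr15:102143986-102144185, plus strand, 6 CpGs).
Pcbp1: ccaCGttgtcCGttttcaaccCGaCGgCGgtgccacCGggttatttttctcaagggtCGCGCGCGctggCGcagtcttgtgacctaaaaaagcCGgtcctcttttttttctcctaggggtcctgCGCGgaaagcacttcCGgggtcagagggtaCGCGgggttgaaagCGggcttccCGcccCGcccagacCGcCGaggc
Hoxd13: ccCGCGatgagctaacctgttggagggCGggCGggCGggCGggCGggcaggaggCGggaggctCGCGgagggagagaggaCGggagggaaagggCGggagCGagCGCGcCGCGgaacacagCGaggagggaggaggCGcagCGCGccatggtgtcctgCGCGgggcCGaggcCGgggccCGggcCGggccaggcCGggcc
S100a2: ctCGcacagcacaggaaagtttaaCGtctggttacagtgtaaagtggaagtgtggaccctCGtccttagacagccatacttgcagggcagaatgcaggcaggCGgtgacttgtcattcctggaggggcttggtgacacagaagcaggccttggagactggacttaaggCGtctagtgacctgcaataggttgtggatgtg
Thy1: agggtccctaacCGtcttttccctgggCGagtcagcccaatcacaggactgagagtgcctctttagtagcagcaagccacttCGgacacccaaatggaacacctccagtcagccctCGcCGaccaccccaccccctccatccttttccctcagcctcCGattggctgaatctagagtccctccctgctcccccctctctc
Igfbp6: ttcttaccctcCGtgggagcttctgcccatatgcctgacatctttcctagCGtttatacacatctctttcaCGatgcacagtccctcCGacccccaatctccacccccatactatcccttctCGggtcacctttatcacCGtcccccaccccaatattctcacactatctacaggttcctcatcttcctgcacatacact

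CpG content, given as the observed over the expected number of CpGs from 250 bp before to 50 bp after the TSS, separated the trimethylated promoters from the others. Its median was 0.79 at promoters with both marks and 0.77 at those with H3K4me3 only. It was 0.25 at promoters with H3K4me1 only, near the 0.21 of promoters with neither mark, and 0.57 over all kept genes. The ratio was above 0.6 at 78.9% of trimethylated promoters and at 9.28% of those with H3K4me1 only, against 48.0% of all promoters. Seen from the sequence, 92.8% of the 1892 promoters with a ratio over 1.0 were trimethylated, against 5.49% of the 5099 promoters at or under 0.2. H3K4me1 within 1 kb of the TSS in all 3 libraries was also more frequent at higher ratios, at 59.5% of promoters over 1.0, against 11.6% of those at or under 0.2. Cover of the TSS itself followed another course. H3K4me1 covered it in all 3 libraries most often at a ratio of 0.4 to 0.6 (17.1% of 2962 promoters), and did so at 2.01% of promoters over 1.0.

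**Figure D3:**
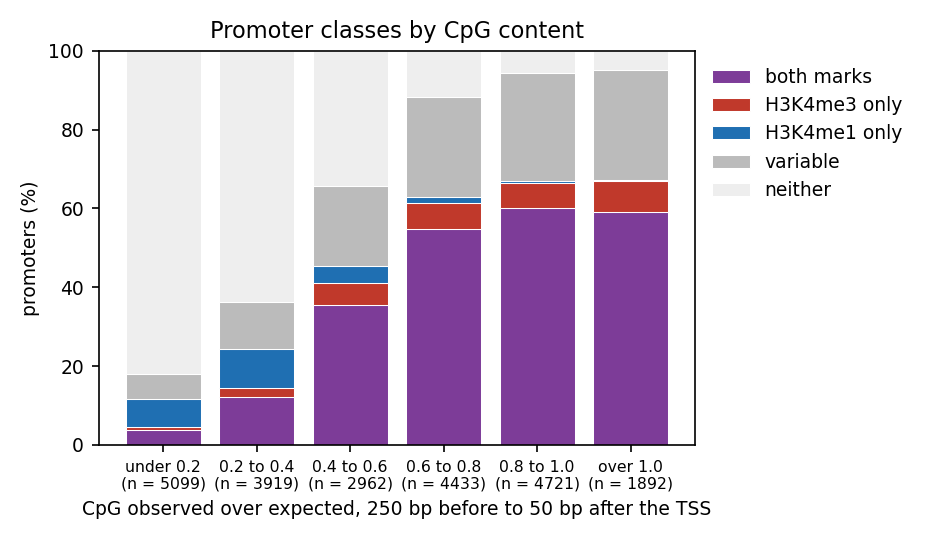
Share of promoters in each class of marks (y axis, percent) by CpG observed over expected (x axis, number of promoters in brackets). Promoters with both marks or with H3K4me3 only dominate above 0.6, promoters with H3K4me1 only are found mainly below 0.4, and those with neither mark make up 81.9% of the lowest bin.

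Short motifs were counted on both strands of the same 300 bp. TATAAA, the core of the TATA box, occurred in 6.31% of trimethylated promoters, 15.1% of those with H3K4me1 only and 22.1% of those with neither mark, against 12.9% of all 23026 promoters with sequence. TGANTCA takes in TGACTCA and TGAGTCA, the sites of AP-1, a factor active in fibroblasts, but also allows A or T in the middle. It occurred in 4.11% of trimethylated promoters, 15.3% of those with H3K4me1 only and 10.2% of those with neither mark, against 7.05% of all. GGGCGG, which shares its CpG with the ratio above, occurred in 68.9% of trimethylated promoters, 24.5% of those with H3K4me1 only and 17.1% of those with neither mark, against 46.2% of all. CCAAT differed least, with 38.9%, 32.7%, 38.8% and 38.3% in the same order. Median GC content was 62% at trimethylated promoters, 51.7% at those with H3K4me1 only and 47.7% at those with neither mark. Whether base composition accounts for the shares of these motifs was not tested. The counts are matches of letters and say nothing of occupancy.

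There were exceptions in both directions. Trimethylated promoters with a CpG ratio of up to 0.4 numbered 1005, among them those of Gapdh, the glycolytic enzyme (0.26), and Id1, an inhibitor of basic helix–loop–helix factors (0.32). Conversely, 436 promoters with a ratio over 0.8 had no H3K4me3 peak in any library, and 90 of the 970 promoters with H3K4me1 only had a ratio over 0.6. Sstr4, a somatostatin receptor, was the CpG-richest of the named genes with H3K4me1 only (1.00). Igfbp6 had a ratio of 0.61 in the 300 bp and of 0.705 in the 200 bases printed above. Its printed bases thus show the contrast in the number of CpGs but not in this ratio.

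H3K4me2 and the FC/FC cells gave readings of the same promoters that had not entered the classes, although their peaks were called against H3 libraries in the same way and the H3K4me2 libraries shared H3 libraries with those used here. H3K4me2 peaks were present in all 3 F/F libraries at 99.8% of trimethylated promoters, at 62.3% of those with H3K4me1 only and at 6.07% of those with neither mark. In FC/FC cells, H3K4me3 was called in all 3 libraries at 99.5% of the promoters trimethylated in F/F cells, and in none at 97.2% of the promoters with H3K4me1 only. Of the promoters with H3K4me1 only, 82.4% had H3K4me1 in all 3 FC/FC libraries. Apart from the variable class, the class with H3K4me3 only was the least stable between the cells, with 546 of its 1038 promoters in the same class in FC/FC cells and most of the others (406) variable.

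The third question was which genes received, over their whole length, a larger share of the transcript reads of one mark than of the other. A gene was tested when at least 3 of the 6 values exceeded 1 RPKM, which 11358 genes did. Of these, 5947 (52.4%) were higher for H3K4me3 and 2180 (19.2%) were lower for H3K4me3, that is, higher for H3K4me1, at an adjusted p under 0.05 and a log2 difference of at least 1 (limma on log2(RPKM + 0.1), Benjamini-Hochberg over all genes tested). At the adjusted p alone the numbers were 7711 (67.9%) and 3195 (28.1%), and the values of the marks did not overlap for 96.1% of genes. A gene that passes the filter through 1 mark only is above 1 RPKM in all 3 libraries of that mark but not of the other. This fixes the direction of a call but does not force one. Of such genes, 2967 were higher and 725 not called for H3K4me3. For H3K4me1, 2087 were lower and 521 not called. Among the 5032 genes above 1 RPKM in all 6 libraries, 2980 (59.2%) were higher and 93 (1.85%) lower, and with no filter 6090 (26.4%) and 4737 (20.6%) of 23043. The split also moved with the scaling of the libraries. It was 7265 higher and 1449 lower when libraries were centred on their medians, which shifted every difference by 0.58 on the log2 scale, and 3725 higher and 3207 lower after quantile normalization. Differences below are those of the deposited RPKM, and each log2 difference is H3K4me3 minus H3K4me1 on the log2(RPKM + 0.1) scale, which understates those of genes with low RPKM.

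Among protein-coding transcripts of at least 1 kb, the 10 genes with the largest difference in favour of H3K4me3 were short, at 1160 to 3290 bp. All had trimethylated promoters and no H3K4me1 peak within the gene, but most had H3K4me1 peaks beside it, within 1 kb of the TSS. By promoter class, Pcbp1, Nrp, Id3 and Actg1 had both marks and Gadd45g, Lpar6 and Rnasek were variable. Only Id1, Hoxd13 and Hoxa13 had H3K4me3 only. Pcbp1 had 52.2, 49.9 and 53.5 RPKM for H3K4me3, against 0.519, 0.459 and 0.3805 RPKM for H3K4me1. Its difference, the largest of the 10, was 6.56 ± 0.09 (SE; limma adjusted p = 6.9e-12). Hoxd13 (29.02, 31.4 and 31.04 RPKM for H3K4me3, against 0.375, 0.3697 and 0.367 for H3K4me1) and Hoxa13 (29.8, 24.8 and 28.3 against 0.4203, 0.333 and 0.357) are the homeobox genes of the most distal limb. Id1 (72.2, 65.3 and 71.4 against 0.884, 0.918 and 0.758) and Id3 (49.2, 42.8 and 45.1 against 0.757, 0.925 and 0.637) encode inhibitors of DNA binding that respond to BMP signals. Actg1, cytoplasmic γ-actin, had 44.6, 41.5 and 42.4 RPKM for H3K4me3, against 0.888, 0.836 and 0.725 for H3K4me1. The others were Gadd45g, a stress-response gene (53.1, 42.8 and 44.04 against 0.468, 0.644 and 0.445 RPKM), Nrp, Lpar6, a receptor for lysophosphatidic acid, and Rnasek. Of these, Nrp, Actg1, Lpar6 and Rnasek lie within 500 bp of another gene or inside it (Lpar6 inside Rb1), and ChIP reads have no strand, so their reads are shared with it.

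Among protein-coding transcripts of at least 1 kb, the 10 genes with the largest difference in favour of H3K4me1 had little H3K4me3 at all, 0.25 to 0.51 RPKM on average, and 3.19 to 5.50 RPKM for H3K4me1. In 9 of the 10 the promoter was in the class with H3K4me1 only, and each had H3K4me1 peaks within the gene. S100a2 had 0.216, 0.283 and 0.347 RPKM for H3K4me3, from as few as 18 reads in a library, against 4.402, 5.003 and 4.23 RPKM for H3K4me1, a difference of -3.62 ± 0.11 (SE; limma adjusted p = 9.4e-11). S100b, of the same family of calcium-binding proteins, had 0.483, 0.528 and 0.528 against 5.54, 5.54 and 5.41. Igfbp6 had 0.3601, 0.362 and 0.365 RPKM for H3K4me3, against 4.21, 4.59 and 3.97 for H3K4me1. Il2rb, a subunit of the receptors for interleukins 2 and 15, had 0.2797, 0.291 and 0.237 against 3.42, 3.35 and 3.22, with 5 H3K4me1 peaks per library within the gene and no H3K4me3 peak. The remaining genes were Sstr4, Gm11563, Israa, E030018B13Rik, Prss2, which encodes a trypsinogen, and Tpsg1, which encodes a tryptase of mast cells. Israa, E030018B13Rik and Tpsg1 share reads with a neighbouring or surrounding gene (Zmiz1, Klf13 and Cacna1h), and the promoter of Tpsg1 had no peak of either mark. Within this choice of genes the largest difference was -3.62 in favour of H3K4me1 and 6.56 in favour of H3K4me3.

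**Figure D4:**
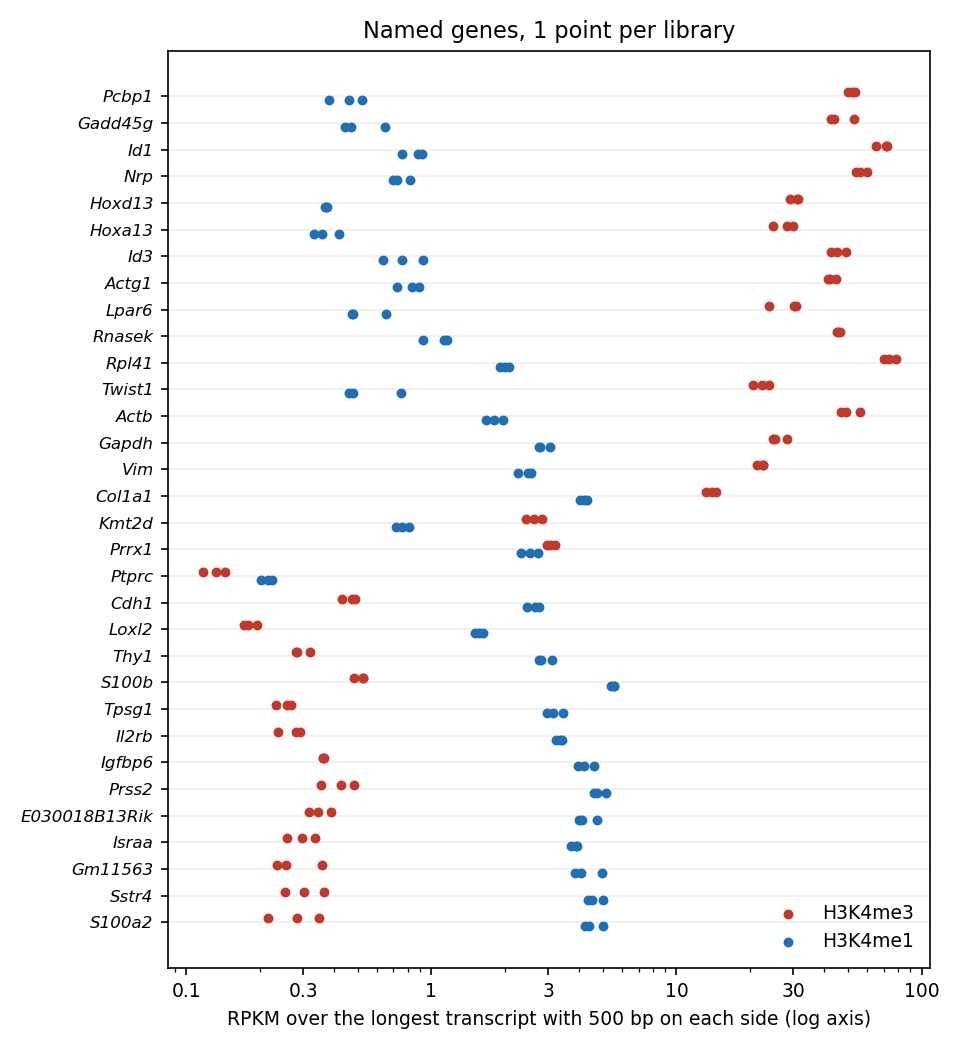
RPKM (x axis, log scale) of the 10 genes with the largest difference in each direction and of further examples, without the 5 promoters with the most H3K4me1, 1 point per library, H3K4me3 in red and H3K4me1 in blue, ordered by the log2 difference. H3K4me3 runs from 0.12 to 78.5 RPKM across the genes drawn and H3K4me1 from 0.20 to 5.54 RPKM, so that the H3K4me3 points spread over a wider range.

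Among promoters with H3K4me1 only, the 5 genes with the highest H3K4me1 were Hrct1 and Pgam2, a muscle phosphoglycerate mutase, and the non-coding 1700119H24Rik, D830046C22Rik and 3930402G23Rik. Hrct1 led, with 0.737, 1.02 and 0.6902 RPKM for H3K4me3, against 9.37, 8.54 and 7.96 RPKM for H3K4me1. Pgam2 had 0.695, 0.671 and 0.816 RPKM for H3K4me3, against 7.21, 6.96 and 7.32 for H3K4me1. The non-coding 1700119H24Rik had a difference of -3.76, beyond that of S100a2. Among these 5, 1700119H24Rik lies in Mylk, Pgam2 is next to Dbnl, and D830046C22Rik shares reads with Gpr146. Non-coding transcripts made up 23.1% of the 970 genes with H3K4me1 only and 6.06% of those with trimethylated promoters, against 11.1% of all genes.

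The difference between the marks also varied with the length of the gene. RPKM average the signal over a whole transcript. The median H3K4me3 of genes with trimethylated promoters was 14.2 to 16.0 RPKM in the 3 libraries at 0.25 to 2 kb, 1.65 to 1.68 RPKM at 20 to 50 kb and 0.45 to 0.46 RPKM at 100 kb or more. For H3K4me1 the medians of the same genes were 1.93 to 2.05 RPKM, 0.86 to 0.88 RPKM and 0.90 to 0.92 RPKM. Reads were also counted per gene without division by length, as RPM, scaled to the reads summed over the kept genes. H3K4me3 was 39.7 to 42.9 RPM in the shortest and 99.9 to 101.2 in the longest of these genes, against 5.39 to 5.65 and 192.9 to 195.9 RPM for H3K4me1. H3K4me1 peaks within the gene increased with length in the same way, with means of 0.76 per gene under 2 kb and 16.6 at 100 kb or more, while H3K4me3 peaks averaged 0.99 and 1.82.

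**Figure D5:**
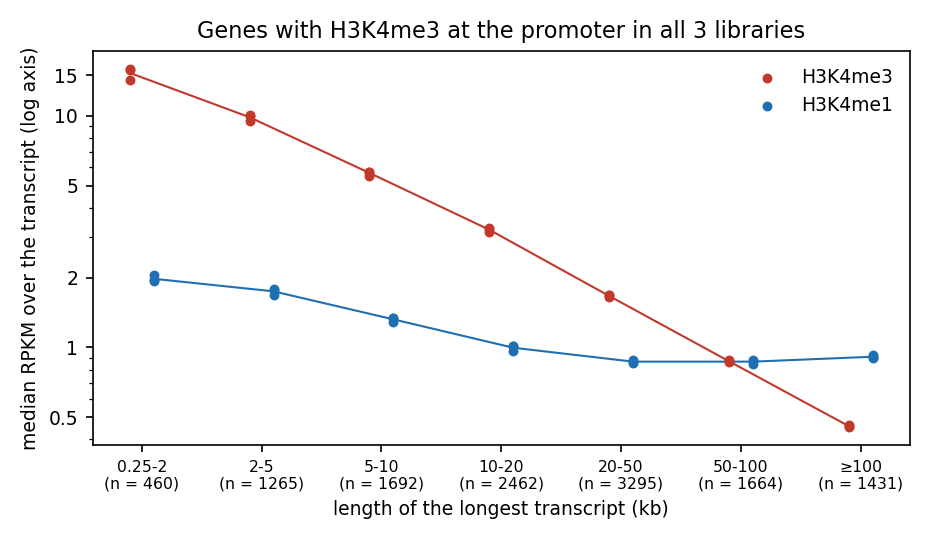
Median RPKM over the transcript (y axis, log scale) of genes with trimethylated promoters by transcript length (x axis, number of genes in brackets), 1 point per library with a line through the mean of the 3, H3K4me3 in red and H3K4me1 in blue. H3K4me3 drops with length and meets H3K4me1 at 50 to 100 kb, where the medians are 0.86 to 0.88 RPKM and 0.85 to 0.88 RPKM.

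The median log2 difference of these genes changed sign with length. It was 2.82 under 2 kb, 0.79 at 20 to 50 kb, -0.13 at 50 to 100 kb and -0.85 at 100 kb or more. The value at 50 to 100 kb became 0.46 when libraries were centred. Of the 12269 genes with trimethylated promoters, 845 were called lower for H3K4me3, and 415 of these were at least 100 kb long. The 845 genes had a median length of 95422 bp and a median of 12.7 H3K4me1 peaks within the gene. By class of promoter, the median difference was 0.95 with both marks, 0.80 with H3K4me3 only, -1.87 with H3K4me1 only and -0.33 with neither, against 0.08 over all genes. These medians describe the classes, which the same libraries defined. For genes with neither mark the sign depended on the scaling (0.26 when centred).

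The gene groups below are lists drawn up from general knowledge, with earlier results of these data known, and are read against all kept genes, of which 53.2% had trimethylated promoters, and against the 52.4% higher and 19.2% lower of genes tested. All 77 genes of cytosolic ribosomal proteins had trimethylated promoters and all 77 were higher for H3K4me3, with a median difference of 3.20. Their median length of 2969 bp falls in the range of 2 to 5 kb, where the median over all genes with trimethylated promoters was 2.41. Rpl41 had the largest difference, with 70.5, 78.5 and 73.4 RPKM for H3K4me3, against 2.07, 1.91 and 1.99 RPKM for H3K4me1. Of 67 replication-dependent histone genes, which are intronless and lie in clusters, 66 had trimethylated promoters and 63 of the 65 tested were higher. The list had a median length of 483 bp and a median difference of 2.80, against 2.82 over all genes with trimethylated promoters of 0.25 to 2 kb. Of the 63 higher, 14 passed the filter through H3K4me3 only. Hist2h2ab stood at one end, with 40.2, 31.1 and 34.7 RPKM for H3K4me3, against 1.02, 0.627 and 1.16 for H3K4me1, and shares reads with Hist2h2ac and Hist2h2be beside it. Hist3h2ba stood at the other, with 1.82, 1.96 and 1.52 RPKM for H3K4me3, against 2.48, 2.14 and 2.08 for H3K4me1, which did not reach a log2 difference of 1, and its sign turned when libraries were centred (0.26).

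Genes of proliferation and of the response to serum were mostly higher for H3K4me3 as well. All 32 cell cycle and replication genes had trimethylated promoters, and 29 were higher for H3K4me3 (median difference 1.98). Of these 29, 13 passed the filter through H3K4me3 only, which fixes their direction. Pcna, the sliding clamp of DNA polymerases, led the list with 18.1, 21.02 and 21.3 RPKM for H3K4me3, against 1.68, 1.75 and 2.101 RPKM for H3K4me1. All 26 immediate early genes had trimethylated promoters and 22 of the 25 tested were higher (median difference 2.68), with Ier3 at the top (50.1, 50.3 and 48.97 against 1.55, 1.23 and 1.27 RPKM). Jun and Myc, chosen after their values were seen, had H3K4me3 only. Jun, a subunit of AP-1, had 26.96, 25.4 and 25.9 RPKM for H3K4me3, against 0.867, 0.938 and 0.853 for H3K4me1. In the actin cytoskeleton list, 17 of the 23 tested were higher and 1 was lower. The lower gene was Cald1, encoding caldesmon, with 0.846, 0.979 and 0.926 RPKM for H3K4me3, against 3.78, 3.901 and 3.77 for H3K4me1. It spans 66026 bp, held 10 H3K4me1 peaks per library and passed the filter through H3K4me1 only. The lists had median lengths of 13466.5 bp (cell cycle), 4020.5 bp (immediate early) and 10177.5 bp (actin cytoskeleton). Over all genes with trimethylated promoters, the median difference was 1.53 at 10 to 20 kb and 2.41 at 2 to 5 kb. Of those genes, 70.2% and 80.9% were called higher. Whether length accounts for the counts of these lists was not tested.

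Most genes of the fibroblast matrix had both modifications at the promoter. Of 31 genes, 28 had trimethylated promoters and 28 had H3K4me1 in all 3 libraries, both above the 53.2% and 40.2% of all genes. Of the 27 tested, 8 were higher for H3K4me3 and 6 lower, with a median difference of -0.29 over the list and a median length of 38663 bp. All 6 lower genes passed the filter through H3K4me1 only, which fixes their direction, while 7 of the 8 higher passed through both marks. Thbs1, encoding thrombospondin 1, had 19.7, 18.8 and 19.7 RPKM for H3K4me3, against 2.11, 1.77 and 1.95 RPKM for H3K4me1. Col1a1, the α1 chain of type I collagen, had 13.2, 13.9 and 14.6 RPKM for H3K4me3, against 4.32, 4.21 and 4.05 RPKM for H3K4me1, a difference of 1.70 ± 0.07 (SE; limma adjusted p = 6.1e-10) that turned to -0.67 after quantile normalization. At the other end, Loxl2, a lysyl oxidase that cross-links collagen, had 0.193, 0.172 and 0.178 RPKM for H3K4me3 and no H3K4me3 peak, against 1.62, 1.499 and 1.57 RPKM for H3K4me1 with 15.3 peaks per library. A further 4 lower genes were named after their values were seen. Dcn, Fbln1 and Fbn1 (decorin, fibulin 1 and fibrillin 1) had both marks at the promoter and H3K4me1 peaks along genes of 38663 to 205845 bp, whereas Lum, encoding lumican, had H3K4me1 only, with 0.351, 0.451 and 0.367 RPKM for H3K4me3, against 1.61, 1.52 and 2.17 for H3K4me1. These 4 calls were lost with a pseudocount of 1 (Dcn -0.57, Fbln1 -0.92, Fbn1 -0.65 and Lum -0.99), and those of Dcn (-0.61) and Fbn1 (-0.57) also after centring.

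The fibroblast markers divided in an unequal way. Twist1, a transcription factor of mesenchyme, had 23.8, 20.5 and 22.3 RPKM for H3K4me3, against 0.462, 0.753 and 0.477 RPKM for H3K4me1 (difference 5.10 ± 0.14, SE). Vim, encoding vimentin and named after its values were seen, had 21.4, 22.5 and 22.6 against 2.25, 2.55 and 2.47. Thy1, often used to sort fibroblasts, was the only one of the 10 markers without H3K4me3 at its promoter, with 0.3196, 0.282 and 0.2797 RPKM for H3K4me3, against 3.11, 2.74 and 2.81 for H3K4me1 (difference -2.92 ± 0.07, SE; limma adjusted p = 2.3e-11). Prrx1, a homeobox gene of limb mesenchyme, was near balance, at 2.95, 3.19 and 3.06 RPKM for H3K4me3, against 2.33, 2.53 and 2.71 for H3K4me1, and its difference of 0.27 became -1.15 after quantile normalization. The presence of Thy1 transcripts or protein in these cells was not measured in these libraries.

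Of 30 mesenchymal factors, 23 had trimethylated promoters, and of the 21 tested 10 were higher and 5 lower. All 5 lower genes passed the filter through H3K4me1 only, and 5 of the 10 higher through H3K4me3 only, which fixes their direction. Short genes such as Snai2 (29.1, 28.9 and 30.04 against 1.16, 1.48 and 1.36 RPKM) and Foxc2 (24.9, 24.6 and 21.4 against 0.714, 0.513 and 0.774 RPKM), both named after their values were seen, were higher for H3K4me3. Meox1, a homeobox gene of the somites, had the largest difference towards H3K4me1, with 0.322, 0.289 and 0.332 RPKM for H3K4me3, against 3.07, 2.43 and 2.65 for H3K4me1. Runx1 and Runx2, also singled out afterwards, had unlike promoters. Runx1 had H3K4me1 only and Runx2 had H3K4me3 only at the start of the longest transcript, while both (224609 and 240190 bp) were called lower for H3K4me3. The log2 difference of Runx1 was -1.02, and its call was lost without H3K4me3 replicate 1 (-0.97), H3K4me3 replicate 3 (-0.98) or H3K4me1 replicate 2 (-0.97), with a pseudocount of 1 (-0.49), after centring (-0.44) and after quantile normalization (-0.93). The log2 difference of Runx2 was -1.23, and its call was lost with the shortest transcript (-0.93), with a pseudocount of 1 (-0.77) and after centring (-0.64).

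Among the Hox genes, which specify position along the body and limb axes, 16 of 39 had trimethylated promoters. These were 8 of 11 in HoxA on chromosome 6, 0 of 10 in HoxB on chromosome 11, 1 of 9 in HoxC on chromosome 15 and 7 of 9 in HoxD on chromosome 2. In HoxC the gene was Hoxc13. Genes towards the 5′ ends of HoxA and HoxD had the largest differences. Beside Hoxa13 and Hoxd13, Hoxa9 had 22.8, 22.7 and 22.8 RPKM for H3K4me3, against 1.35, 1.31 and 1.06 for H3K4me1, Hoxa10 had 21.03, 21.7 and 21.4 against 1.75, 1.67 and 1.52, and Hoxd11 had 21.8, 21.4 and 22.5 against 0.934, 1.01 and 0.867, all 3 named after their values were seen. Of the 16 Hox genes tested, 10 were higher and 1, Hoxa2, was lower, at 0.389, 0.483 and 0.381 RPKM for H3K4me3, against 1.07, 1.203 and 1.07 for H3K4me1, a call lost with a pseudocount of 1 (-0.58) and after centring (-0.65). Hoxa2 passed the filter through H3K4me1 only, and 3 of the 10 higher Hox genes through H3K4me3 only, which fixes their direction. Hoxd12, between Hoxd11 and Hoxd13, had both marks and a difference of -0.76, which was not called. No gene of HoxB passed the filter, and none of its promoters had H3K4me3 in any library.

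Epithelial, myogenic, haematopoietic, endothelial and neuronal genes had H3K4me3 at fewer promoters than the 53.2% of all genes, with the counts given above for the check of the cell type. Every member of these 5 lists that was called lower passed the filter through H3K4me1 only, as did the 4 lower adipogenic genes. This fixes the direction of their calls, and these counts are no result about the lists. Of 19 epithelial markers, 7 had H3K4me1 only, which is 36.8% against 4.21% of all genes, among them the keratins Krt8 and Krt19 and the transcription factors Elf3 and Trp63. Of the 6 tested, 5 were lower for H3K4me3. The largest difference was that of Cdh1, encoding E-cadherin, which had both marks at the promoter, with 0.473, 0.4298 and 0.486 RPKM for H3K4me3, against 2.75, 2.46 and 2.65 for H3K4me1 and 13 H3K4me1 peaks per library along the gene. Of 18 myogenic genes, 4 had H3K4me1 only (Casq1, Des, Tnni1 and Tnnt3), and none had H3K4me3. Casq1, the calsequestrin of fast muscle, had 0.279, 0.367 and 0.251 RPKM for H3K4me3, against 1.3, 1.23 and 1.16 RPKM for H3K4me1. Of 24 haematopoietic genes, 20 had neither mark (83.3%, against 37.2% of all genes), and Ptprc, encoding CD45, had 0.117, 0.144 and 0.132 RPKM for H3K4me3, against 0.202, 0.215 and 0.223 for H3K4me1. Csf1r, a macrophage growth factor receptor, was in the class with H3K4me1 only (0.253, 0.242 and 0.2004 against 1.65, 1.51 and 1.41 RPKM). Of 15 adipogenic genes, 8 (53.3%) had trimethylated promoters, near the 53.2% of all genes, and of the 9 tested 2 were higher and 4 lower. The early regulators Cebpb and Cebpd had trimethylated promoters, Cebpb with 27.3, 25.1 and 24.4 RPKM for H3K4me3, against 0.966, 0.8302 and 0.859 for H3K4me1, whereas Fabp4, a lipid chaperone of mature adipocytes, had H3K4me1 only and was lower (-1.87). Pparg, the master regulator of adipocytes, had both marks and was lower (-1.25). Cidec, a protein of lipid droplets, was the lowest, with 0.201, 0.191 and 0.225 RPKM for H3K4me3, against 1.11, 1.06 and 1.005 for H3K4me1. Of 17 endothelial markers 6 were tested and 5 were lower, Eng (endoglin) the most, with 0.375, 0.359 and 0.335 RPKM for H3K4me3, against 1.998, 1.86 and 1.85 for H3K4me1. Of the 21 neuronal markers 2 were tested. Eno2, a neuronal enolase, was higher (1.22, but 0.01 after quantile normalization), and Tubb3, a neuronal tubulin, had 0.787, 0.656 and 0.815 RPKM for H3K4me3, against 1.396, 1.2 and 1.099 for H3K4me1, and was not called.

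Of 38 genes listed as regulators of other lineages, 24 (63.2%) had neither mark, against 37.2% of all genes. Trimethylated promoters were found at 7 (En1, Eomes, Gata4, Lhx2, Neurog2, Sox2 and Tbx5). Whether each member of the list is foreign to embryonic fibroblasts was not tested. Sox2, a factor of pluripotent and neural cells, had 11.01, 11.4 and 10.6 RPKM for H3K4me3, against 0.672, 0.678 and 0.701 RPKM for H3K4me1, and its reads are shared with Sox2ot around it. Pax8, of kidney and thyroid, had no promoter peak of either mark and 0.258, 0.259 and 0.257 RPKM for H3K4me3, against 1.99, 1.88 and 1.93 for H3K4me1, with 8 H3K4me1 peaks per library inside the gene. Of 1101 olfactory receptor genes, 1089 (98.9%) had neither mark, against 37.2% of all genes. The 12 tested had passed the filter through H3K4me1 only, which fixes their direction, and all 12 were called lower, Olfr1423 the most, at 0.393, 0.348 and 0.278 RPKM for H3K4me3, against 2.48, 2.704 and 2.73 for H3K4me1. Of 53 keratin-associated genes, 45 had neither mark and 7 had H3K4me1 only. The 7 tested had likewise passed through H3K4me1 only, which fixes the direction of all 7. Krtap2-4 had 0.326, 0.202 and 0.248 RPKM for H3K4me3, from as few as 11 reads, against 3.25, 2.52 and 2.63 for H3K4me1.

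The genes of the enzymes that write and erase the mark mostly had trimethylated promoters. Of 25 genes for H3K4 methyltransferases, their complex subunits and demethylases, 22 had trimethylated promoters. H3K4me3 only was found at 8 (32.0%), against 4.50% of all genes, and both marks at another 8 (32.0%), against 35.2%. Of the 18 tested, 14 were higher, but 12 of these passed the filter through H3K4me3 only, which fixes their direction. Kmt2d, encoding MLL2, had H3K4me3 only, at 2.83, 2.62 and 2.44 RPKM for H3K4me3, against 0.812, 0.755 and 0.714 RPKM for H3K4me1, a difference of 1.66 ± 0.07 (SE; limma adjusted p = 9.1e-10). Cxxc1, the CpG-binding subunit of the SETD1 complexes, had the largest difference, with 9.16, 8.91 and 9.13 against 0.966, 1.004 and 0.824. Kdm1a, the demethylase LSD1, was the lowest, with 0.832, 0.862 and 0.783 RPKM for H3K4me3, against 1.12, 1.16 and 1.23 for H3K4me1, a difference of -0.46 whose sign turned when libraries were centred (0.13). Of 26 interferon-response genes, 19 had trimethylated promoters and 15 had both marks. Ifitm2 had the largest difference, with 28.98, 31.02 and 32.4 against 2.89, 3.04 and 2.5, and Ifit3 the lowest, with 1.36, 1.42 and 1.42 against 3.79, 3.19 and 3.45. The housekeeping genes Actb (cytoplasmic β-actin), at 55.9, 46.9 and 49.03 RPKM for H3K4me3, against 1.95, 1.796 and 1.67 for H3K4me1, and Eef1a1, at 21.9, 22.6 and 21.2 against 1.26, 1.43 and 1.14, were on the side of H3K4me3, as were 14 of the 15 tested in their list. Reads are shared with a neighbour for Rpl41 (Zc3h10), Ier3 (Flot1), Thbs1 (Gm13986), Cebpb (A530013C23Rik), Csf1r (Hmgxb3), Hoxa2 (Hotairm1), Eng (Fpgs), Eno2 (Lrrc23), Tubb3 (Mc1r) and Kmt2d (Prkag1), so that their values are uncertain to that extent.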

How the data were processed

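H3K4me3 and H3K4me1 ChIP-seq of untreated F/F cells was analysed in 6 libraries, 3 per mark. The authors deposited RPKM for every RefSeq transcript with 500 bp on either side, without normalization to H3. Their base calling used CASAVA 1.4 and their alignment BWA 0.7.10 (mm10), per the labels and methods. Peaks of each library came from MACS 1.4.2 with an H3 library as control, one H3 library serving all marks of an experiment. The deposited peak score is the p-value on a minus log10 scale multiplied by 10, with 50 as its lowest value. According to the methods, peaks in blacklisted regions were dropped from the analysis; whether before deposit is not stated there. Whole read numbers could be recovered for 100% of RPKM (within 0.01 read).

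The longest transcript per symbol of at least 250 bp was kept (23043 genes; 1352 transcripts were shorter). A gene entered the test when its RPKM exceeded 1 in 3 or more of the 6 libraries. limma 3.58.1 (R 4.3.3) was fitted to log2(RPKM + 0.1) with a mean-variance trend and Benjamini-Hochberg adjustment. Libraries of 11358 genes, 200 of them changed, were simulated and scored at adjusted p under 0.05 with the right sign. Of genes changed by 1 on the log2 scale 98% were recovered, and of those changed by 0.5 86%, with 8 false calls. The log2 difference of at least 1 was not applied there, and far fewer genes differed than in the data. The simulation therefore does not measure the error of the calls reported here. Shares, numbers and widths of peaks were compared by exact permutation tests. Promoter sequence of 23026 genes was read from GRCm38; at the 14305 starts also found in RefSeq's promoter table it was identical there. Peaks needed an overlap of 1 bp. Python 3.11.15, numpy 2.4.6 and pandas 2.3.3 served for the rest.

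Named genes were the 10 largest differences in each direction (protein-coding transcripts of at least 1 kb, no overlap between the marks), the 5 promoters with H3K4me1 only and the most H3K4me1, the extreme tested members of each list and 6 fixed examples. The comparison, the lists and this rule were chosen with earlier results of these data known. Alternatives were pseudocounts of 0.01 and 1, no filter, the shortest transcript, centring, quantile normalization, no trend, limma-voom on recovered reads, a replicate block, peaks with a score of at least 100, equal numbers of peaks, other windows and starts, and leaving out each library. The filter on all 6 libraries, the GENCODE starts and the width of equal numbers of peaks were added later, with the data in view.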

Additional observations from a re-analysis of the deposited data

How the results depend on the processing

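The number of genes higher for H3K4me3 was 3725 after quantile normalization and 2980 with RPKM above 1 in all 6 libraries, against 5947, and within 1.5 times of it otherwise (6032 by limma-voom on whole reads, with 2308 lower). The number lower was 771 with a pseudocount of 1, 4737 with no filter, 1449 after centring and 93 with RPKM above 1 in all 6 libraries, against 2180. Leaving out a library gave 5905 to 5993 higher and 2165 to 2205 lower.

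The shares of peaks kept their direction in every alternative run. Without 1 library, the differences were 50.4 to 51.5 percentage points within 1 kb, -47.4 to -46.0 over 5 kb, -92724 to -73115 in the number of peaks and 600 to 967 bp in median width. The width alone turned, to -1233.67 bp, with equal numbers of top-scoring peaks.

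Promoter classes depended on the window and the peak threshold. Both marks numbered 5329 within 500 bp, 1378 over the TSS itself, 5023 at a score of at least 100 and 824 with equal numbers of peaks. H3K4me3 only numbered 2873, 7751, 2388 and 10141 in the same order and 587 within 2 kb. With equal numbers of peaks, H3K4me1 only fell to 246 and the variable class to 1945. Leaving out a library gave 8109 to 9162 with both marks, 1043 to 1672 with H3K4me3 only, 981 to 1144 with H3K4me1 only, 8587 to 8749 with neither and 2844 to 4262 variable. The dip of H3K4me1 at the TSS was -28.6 percentage points at a score of at least 100 and -35.1 to -32.1 without a library. What moved these values was not tested.

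Signs turned for Col1a1 (-0.67) and Prrx1 (-1.15) after quantile normalization, and after centring for Hist3h2ba (0.26), Kdm1a (0.13), promoters with neither mark (0.26) and trimethylated genes of 50 to 100 kb (0.46). Over all named genes and alternatives, a call was lost 26 times and gained 1 time with its sign kept, and of those that turned, Col1a1 lost its call and Prrx1 gained one. Lost calls include Gapdh, Vim, Eno2 and Hoxd10 after quantile normalization, Casq1, Cidec, Eno2 and Ifit3 with a pseudocount of 1, and Ifit3 after centring. Libraries that share an H3 library correlated in their deviations by 0.26, 0.12 and 0.07, and those that do not by -0.20 to 0.12. By the shared H3 library they can be paired by experiment. The main fit and the permutation tests left this pairing out. A replicate block by H3 library gave 5947 higher and 2180 lower. No gene with RPKM under 1 in 4 or more libraries was tested, and the lowest H3K4me3 values rest on 11 to 20 reads.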
